A study of Mus musculus with 17 samples.

Results

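The mitochondrial ribosomal protein genes form the family whose symbols begin with Mrpl, for the large subunit, or Mrps, for the small subunit. They were chosen by symbol alone: a gene is a member if the array annotation gives its probe sets a single symbol made of Mrpl or Mrps, a number and at most a letter from a to c. This gave 76 members of the 18193 genes with a single symbol, measured by 156 of 45037 probe sets. A further 4 probe sets of the family carry several symbols and were left out. Of the members, 49 belong to the large subunit, of which 30 are of a protein family that bacteria also have and 19 are specific to mitochondria, and 26 belong to the small subunit, 17 of a bacterial family and 9 without. All 3 genes of the S18 family were counted with the bacterial families, although the structural names of the products of Mrps18a and Mrps18b mark them as specific to mitochondria. The remaining member, Mrps36, is of disputed place, since its product is also known as a part of the oxoglutarate dehydrogenase complex.

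The mitochondrial ribosome translates the few proteins that the mitochondrial genome encodes, all of them core parts of the respiratory chain and ATP synthase. Its rRNAs come from that genome, whereas every one of its proteins is encoded in the nucleus, translated in the cytosol and imported. In neurons, which depend on oxidative phosphorylation, these mRNAs are housekeeping transcripts that are generally far less abundant than those of the cytosolic ribosome.

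The samples were amplification controls made from a single cortical mRNA preparation, whose source was an adult female mouse of the C57BL/6 strain. An aliquot of 5 µg, called bulk here, was put on 1 Affymetrix mouse array without amplification. The same mRNA was diluted to 10, 1 or 0.1 pg, the range of RNA in a cell or less, and amplified by in vitro transcription for 2 or 4 rounds in all, with 1 array for 10 pg after 2 rounds and 3 arrays for each of the other 5 combinations. Replicates were therefore separate amplifications of 1 RNA, and every p-value below measures how amplifications of that RNA vary, with no information on other animals.

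A level below is the log2 signal of a probe set relative to the median of its array, after each array was brought to a common range, and each gene is read from the probe set that was brightest on average over the 17 arrays. Signals of different probe sets also depend on how well their probes bind, so an order of genes on an array is an order of signals and not of transcript numbers. In bulk, the neuronal markers lay between the percentiles 74.3 (Slc17a7) and 98.3 (Eno2). Markers of other cells spread widely, from 29.9 (Gfap) to 89.2 (Slc1a3) for astrocytes, 29.9 (C1qa) to 97.9 (Cx3cr1) for microglia, 9.50 (Mog) to 84.2 (Mbp) for oligodendrocytes and 15.4 (Cldn5) to 58.9 (Pecam1) for endothelium. Among genes that cortex is not known to express, Alb was at 16.7 but Ins2 at 79.1. After amplification the neuronal markers spread more widely too, with means from 23.8 (Snap25) to 93.2 (Gad1) at 0.1 pg after 2 rounds. With 4 rounds their means went from 29.8 (Slc17a7) to 99.1 (Snap25) at 10 pg and from 23.9 (Slc17a7) to 92.7 (Syt1) at 0.1 pg. Ties were frequent on some arrays: the 10 pg array after 2 rounds held 872 distinct values against 3771 in bulk, and 139 of the 156 member probe sets shared their value with another member there, against 51 in bulk. On the 0.1 pg arrays after 2 rounds 135, 132 and 111 of them did so.

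The median of the members lay near the middle of the array before and after amplification, which does not show that single members kept their places. Their median percentile among all genes was 50.4 in bulk, with the middle of the family between the percentiles 29.2 and 66.1, and 37 of the 76 members lay in the lower part of the genes. It was 58.1 on the 10 pg array after 2 rounds, where ties were most frequent. With 2 rounds the median was 47.2 ± 2.93 for 1 pg and 48.5 ± 4.48 for 0.1 pg, and with 4 rounds 47.5 ± 1.86 for 10 pg, 49.3 ± 6.40 for 1 pg and 48.4 ± 2.20 for 0.1 pg, each as mean ± SD of 3 arrays. These 5 means differed from each other by less than the largest spread between replicates.

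The medians of the genes of the cytosolic ribosome and of the respiratory chain differed more between conditions. The 42 cytosolic ribosomal protein genes with a single symbol lay at a median percentile of 68.1 in bulk, and with 4 rounds at 62.4 ± 13.5 for 10 pg and 41.6 ± 8.87 for 0.1 pg (mean ± SD of 3 arrays). The 73 genes of the respiratory chain and ATP synthase lay at 73.1 in bulk, and with 4 rounds at 65.3 ± 7.86 for 10 pg and 46.6 ± 3.32 for 0.1 pg. On the 10 pg array after 2 rounds both lists were at 89.3. Both were above the mitochondrial ribosomal proteins in bulk, and with 0.1 pg and 4 rounds their means were below, by less than the spread between arrays. The median of the 33 genes of mitochondrial translation and ribosome assembly stayed near the middle, at 53.9 in bulk and with condition means between 49.2 and 57.6 after amplification. No test was made of these medians between lists, and the lists that started above the middle had further to move towards it.

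**Figure D1:**
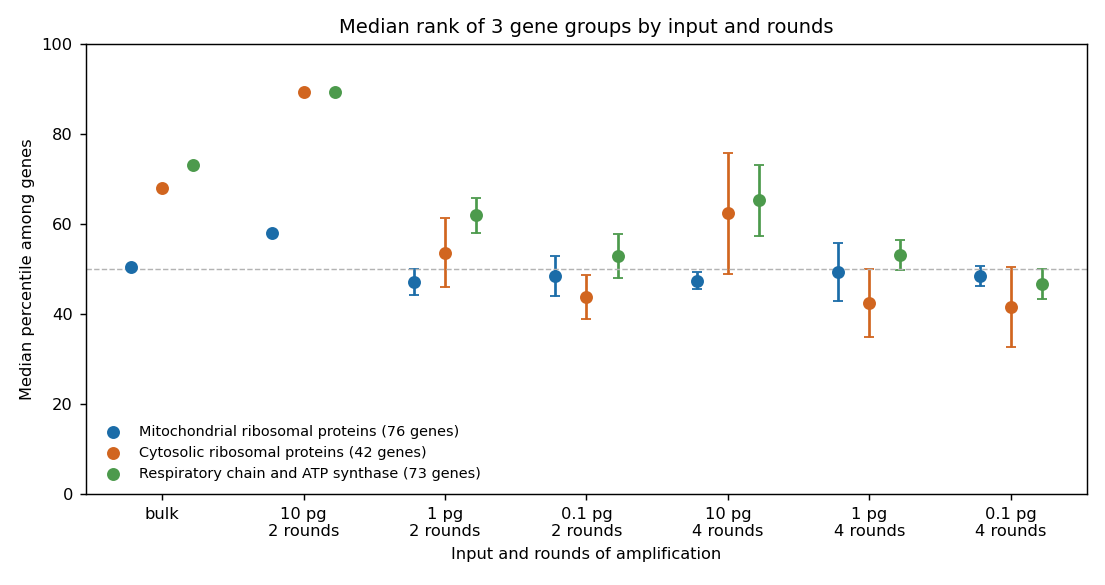
Median percentile of 3 gene groups among all genes (y axis, percent of genes at or below) in bulk and by input and rounds of amplification (x axis). Points are means over the arrays of a condition and bars are 1 SD over 3 arrays; bulk and 10 pg after 2 rounds are single arrays without bars. The mitochondrial ribosomal proteins lie between 47.2 and 50.4 apart from the 10 pg array after 2 rounds at 58.1, while both other groups go from above 60 in bulk, through 89.3 on that array, to below 50 at 0.1 pg after 4 rounds.

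The subunits were alike in bulk, with a median percentile of 50.3 for the large subunit and 47.6 for the small subunit. With 1 pg and 2 rounds they were at 51.0 ± 5.67 and 36.4 ± 5.67, and with 0.1 pg and 4 rounds at 50.4 ± 3.87 and 45.0 ± 1.78 (mean ± SD of 3 arrays). The order was the reverse on the 10 pg array after 2 rounds, at 53.5 and 60.1, and in the means at 1 pg after 4 rounds, at 47.2 and 49.6. The 9 small subunit members without a bacterial family were the lowest of the 4 classes in bulk, at 34.1, and with 0.1 pg and 4 rounds, at 19.8 ± 1.54. On the 10 pg array after 2 rounds they were the highest, at 62.2, and at 1 pg after 4 rounds their mean of 48.7 lay above that of the large subunit members of bacterial families, at 43.7. The 19 large subunit members specific to mitochondria were the highest class in bulk, at 58.5, and by their means in each condition with 3 arrays, between 54.3 and 62.6. On the single 10 pg array after 2 rounds, where ties were most frequent, they were the lowest, at 48.0. The median over all genes had the same percentile there.

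Few members kept an extreme place. Only 4 of the 76 (5.26%) were above the median gene on all 17 arrays, against 16.0% of all genes, namely Mrpl15, Mrpl17, Mrpl57 and Mrps27, and 4 (5.26%) were below it on all 17, against 10.8% of all genes, namely Mrpl10, Mrpl18, Mrpl27 and Mrpl37. The first count depends on ties: Mrpl48 and Mrpl51 had their lowest place, the percentile 48.0, on the 10 pg array after 2 rounds. That is a tied value, which the median over all genes shared there. The SD of a member over the 17 arrays had a median of 0.85 on the log2 scale, from 0.41 for Mrpl23 to 1.69 for Mrpl48, and the median over all genes was 0.87. The cytosolic ribosomal proteins had 1.26 and the respiratory chain 1.18. Over the 76 members, drawn in the map of their levels, Pearson's correlation of an array with bulk averaged 0.766 at 1 pg after 2 rounds, 0.719 at 0.1 pg after 2 rounds, and 0.788, 0.730 and 0.765 at 10, 1 and 0.1 pg after 4 rounds. On the 10 pg array after 2 rounds it was 0.600. Over all genes the same correlations were 0.748, 0.669, 0.854, 0.810 and 0.729, and 0.741 on the 10 pg array, so the members lay above all genes in some conditions and below in others. These correlations are across genes, which share their arrays and are not independent, and they rest in part on a few bright members.

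**Figure D2:**
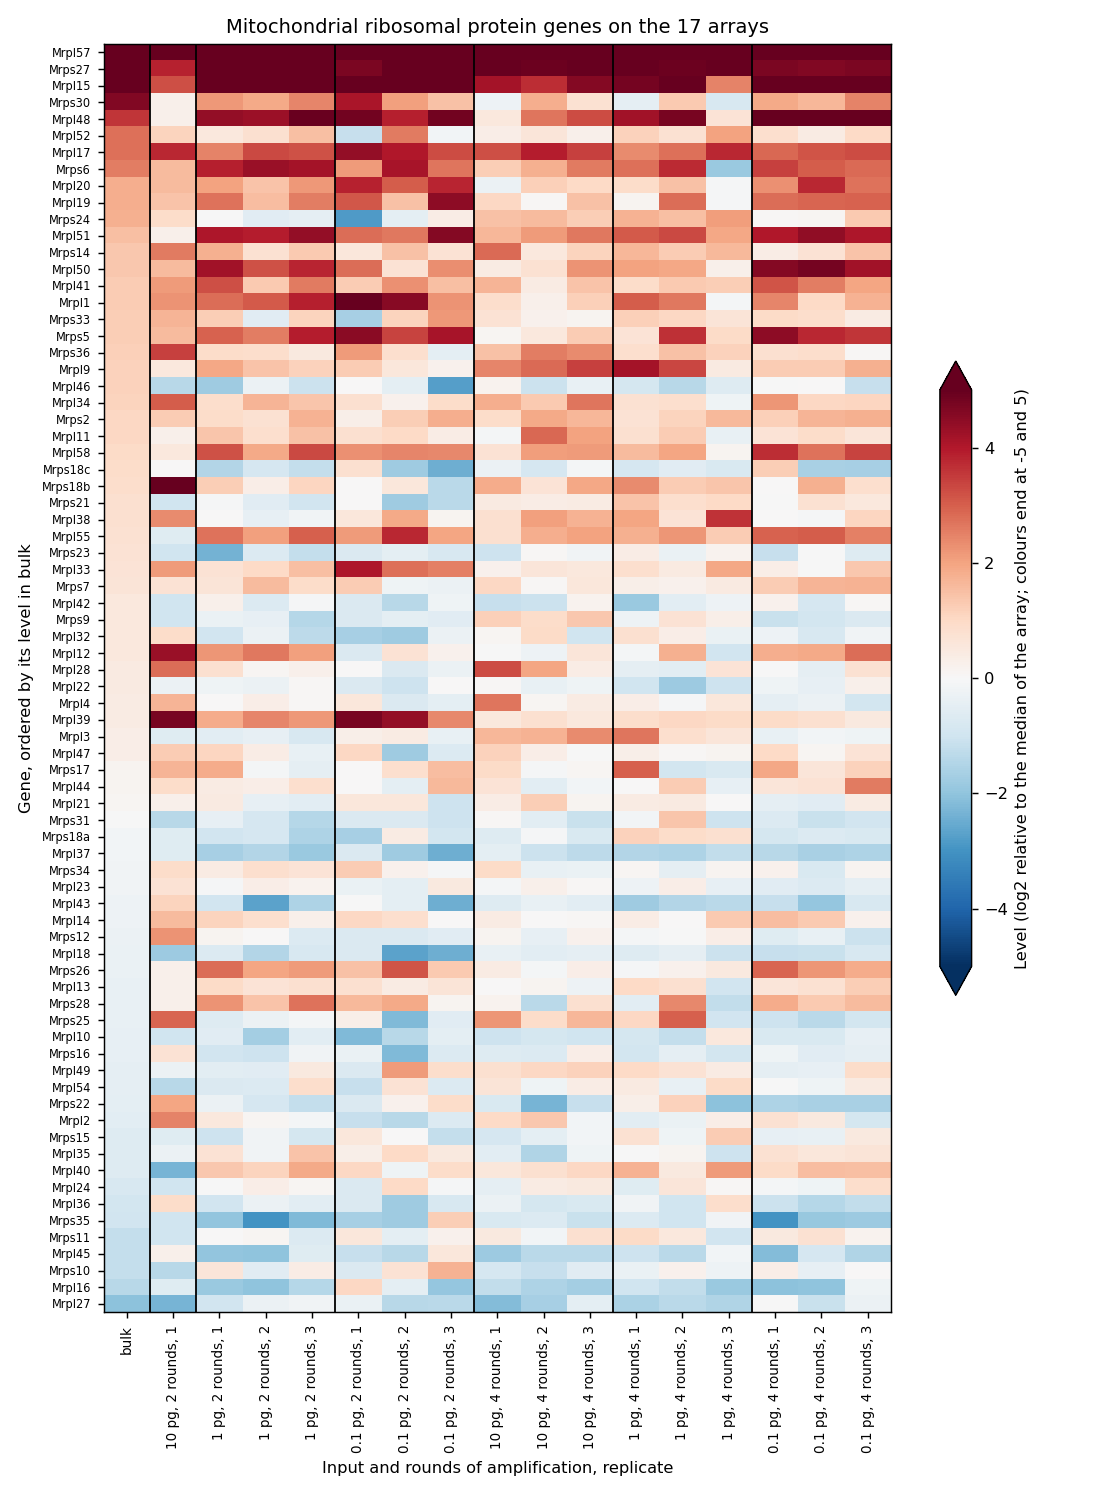
Levels of the 76 members (rows, ordered by their level in bulk) on the 17 arrays (columns, by input, rounds and replicate). Colour is log2 units from the array median, red above and blue below, with colours ending at -5 and 5. Mrpl57, Mrps27 and Mrpl15 stay red on every array, most members are pale, and Mrps30 fades from 4.61 in bulk.

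The brightest members in bulk belonged mostly to the large subunit. Mrpl57, a small protein specific to the mitochondrial large subunit, was the brightest, at 8.71 in bulk, and ranged from 8.36 to 10.01 over the 16 amplified arrays. It was in the top 10% of genes on all 17 arrays, the only member to be so. That rank belongs to its probe set 1460225_at, because its other probe set, 1418137_at, was at 0.71 in bulk, 7.99 lower.

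Mrps27, a pentatricopeptide repeat protein of the small subunit, was at 5.31 in bulk and between 3.85 and 5.83 over the amplified arrays. Its SD over the 17 arrays, 0.44, was among the smallest of the family. Mrpl15, a large subunit protein of a bacterial family, was at 5.00 in bulk and between 2.48 and 6.10 after amplification. Mrpl15 has 8 probe sets, the most of any member, and they spread over 6.49 on the log2 scale in bulk.

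Mrps30 and Mrpl48, both of the large subunit although the symbol of Mrps30 names the small one, were bright in bulk and varied after amplification. Mrps30 was at 4.61 in bulk, 0.27 on the 10 pg array after 2 rounds, at 2.17, 1.89 and 2.44 at 1 pg and at 4.09, 2.06 and 1.45 at 0.1 pg after 2 rounds. After 4 rounds Mrps30 was at -0.24, 1.83 and 0.77 at 10 pg, at -0.46, 1.29 and -0.80 at 1 pg and at 1.91, 1.66 and 2.49 at 0.1 pg. All 16 amplified arrays were thus below bulk. Mrpl48, which sits in the central protuberance of the large subunit, was at 3.57 in bulk, while its other probe sets were at -0.31 and -0.56.

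The dimmest members in bulk came from both subunits. Mrpl27, which lies close to the peptidyl transferase centre, was at -2.06 in bulk, the percentile 3.98, and between -2.32 and -0.03 over the amplified arrays, below the array median each time. That place belongs to its probe set 1442299_at, because its other probe set, 1415690_at, was at 0.16 in bulk. Mrpl16, a large subunit protein of a bacterial family, was at -1.39, Mrps10 of the small subunit at -1.20, and Mrpl45, which tethers the ribosome to the inner membrane, at -1.18. Mrps11 of the small subunit was also at -1.18 in bulk and lay above that value on all 16 amplified arrays, between -0.99 and 0.94. The other probe set of Mrps10 was at -0.26 in bulk and that of Mrps11 at -1.59.

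Mammals carry 3 genes for the protein S18, whose products take different places in the ribosome: that of Mrps18a sits in the large subunit and that of Mrps18c in the place of the bacterial protein. In bulk Mrps18a was at -0.12, Mrps18b at 0.89 and Mrps18c at 0.91. Mrps18b reached 5.19 on the 10 pg array after 2 rounds and lay between -1.35 and 2.36 on the other amplified arrays. Mrps18c was between -2.45 and 1.22 over the amplified arrays, below bulk on 15 of 16. Mrps18a was at 1.17, 0.93 and 0.79 at 1 pg after 4 rounds and at or below 0.39 on every other array. None of these 3 genes passed the test in any of the 5 contrasts below, and the smallest adjusted p was 0.0853 (limma), for Mrps18a in the difference between inputs in the effect of rounds.

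The first contrast asked whether the family depended on the amount of RNA after a fixed 4 rounds, by setting 0.1 against 10 pg, with 3 arrays each. Of the 76 members 10 (13.2%) were called at an adjusted p under 0.05 (limma, Benjamini-Hochberg over all probe sets), 7 higher (9.21%) and 3 lower (3.95%) at 0.1 pg. Of all genes 9.98% were called in this contrast, 4.99% higher and 4.99% lower. Over both directions together, the members' share was thus near that of all genes. Their median difference was 0.04 on the log2 scale, against 0.13 over all genes. The cytosolic ribosomal proteins had a median of -0.54, with 0 called higher and 3 lower, and the respiratory chain -0.51, with 6 higher and 8 lower. By class, 6 of the 49 large subunit members (5 higher, 1 lower) and 4 of the 26 small subunit members (2 and 2) were called.

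In the large subunit, Mrpl50, a protein specific to mitochondria, had the largest rise of the family. It was at 0.42, 0.77 and 2.24 at 10 pg and at 4.60, 4.80 and 4.21 at 0.1 pg. Every 0.1 pg array was above every 10 pg array and above bulk, at 1.33, and the difference of 3.39 (SE 0.627) had an adjusted p of 0.00359. Mrpl48 was at 0.53, 2.67 and 3.28 at 10 pg and at 5.25, 5.26 and 5.14 at 0.1 pg, a rise of 3.06 (SE 0.844, adjusted p = 0.0331). The 10 pg arrays were spread over more than 2 log2 units, the 0.1 pg arrays were nearly equal, and the sides did not overlap.

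Mrpl20, the counterpart of a bacterial protein needed to assemble the large subunit, was at -0.31, 1.19 and 0.99 at 10 pg and at 2.28, 3.79 and 2.70 at 0.1 pg. The difference of 2.29 (SE 0.543) had an adjusted p of 0.0154. Mrpl12 belongs to the stalk that recruits translation factors, and it was at -0.03, -0.27 and 0.61 at 10 pg and at 1.81, 1.88 and 2.78 at 0.1 pg (difference 2.05, SE 0.602, adjusted p = 0.0433). The call of Mrpl12 was lost when any 1 of the 1 pg arrays after 2 rounds or the 0.1 pg arrays after 4 rounds was left out. It was also lost without replicate 1 or 2 of 10 pg or replicate 1 of 1 pg after 4 rounds. Mrpl51, specific to mitochondria, went from 1.66, 2.14 and 2.66 to 4.02, 4.42 and 4.06 (difference 2.01, SE 0.529, adjusted p = 0.0263). In these 3 genes, too, no 0.1 pg array reached down to a 10 pg array.

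Mrpl3, which reaches towards the peptidyl transferase centre, was the called fall of the large subunit. It was at 1.64, 1.75 and 2.35 at 10 pg and at -0.35, -0.12 and -0.20 at 0.1 pg, and it fell by 2.14 (SE 0.499, adjusted p = 0.0140). Bulk, at 0.35, lay between both sides.

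In the small subunit, Mrps5, a protein of the mRNA channel that bears on the accuracy of decoding, rose. It was at 0.10, 0.51 and 1.28 at 10 pg and at 4.49, 3.77 and 3.59 at 0.1 pg (difference 3.32, SE 0.667, adjusted p = 0.00601). Mrps26, specific to mitochondria, was at 0.40, -0.10 and 0.34 at 10 pg and at 2.91, 2.22 and 1.84 at 0.1 pg (difference 2.11, SE 0.503, adjusted p = 0.0162). Both genes were far above bulk at 0.1 pg, where bulk was at 1.21 for Mrps5 and -0.33 for Mrps26.

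Mrps9 and Mrps25 of the small subunit fell. Mrps9, whose bacterial counterpart touches the tRNA in the P site, was at 1.18, 0.93 and 1.35 at 10 pg and at -1.11, -0.93 and -0.72 at 0.1 pg, a difference of -2.08 (SE 0.414, adjusted p = 0.00577). Mrps25, specific to mitochondria, was at 2.22, 0.90 and 1.67 at 10 pg and at -1.04, -1.33 and -0.91 at 0.1 pg, a difference of -2.69 (SE 0.781, adjusted p = 0.0416). At 1 pg after 4 rounds Mrps25 had a mean of 1.03 ± 1.99 (SD, n = 3), and its arrays reached both sides. The call of Mrps25 was lost with the replicate number as a block, and also when any 1 of the 1 pg arrays after 2 rounds, the arrays compared here or replicate 1 of 1 pg after 4 rounds was left out.

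**Figure D3:**
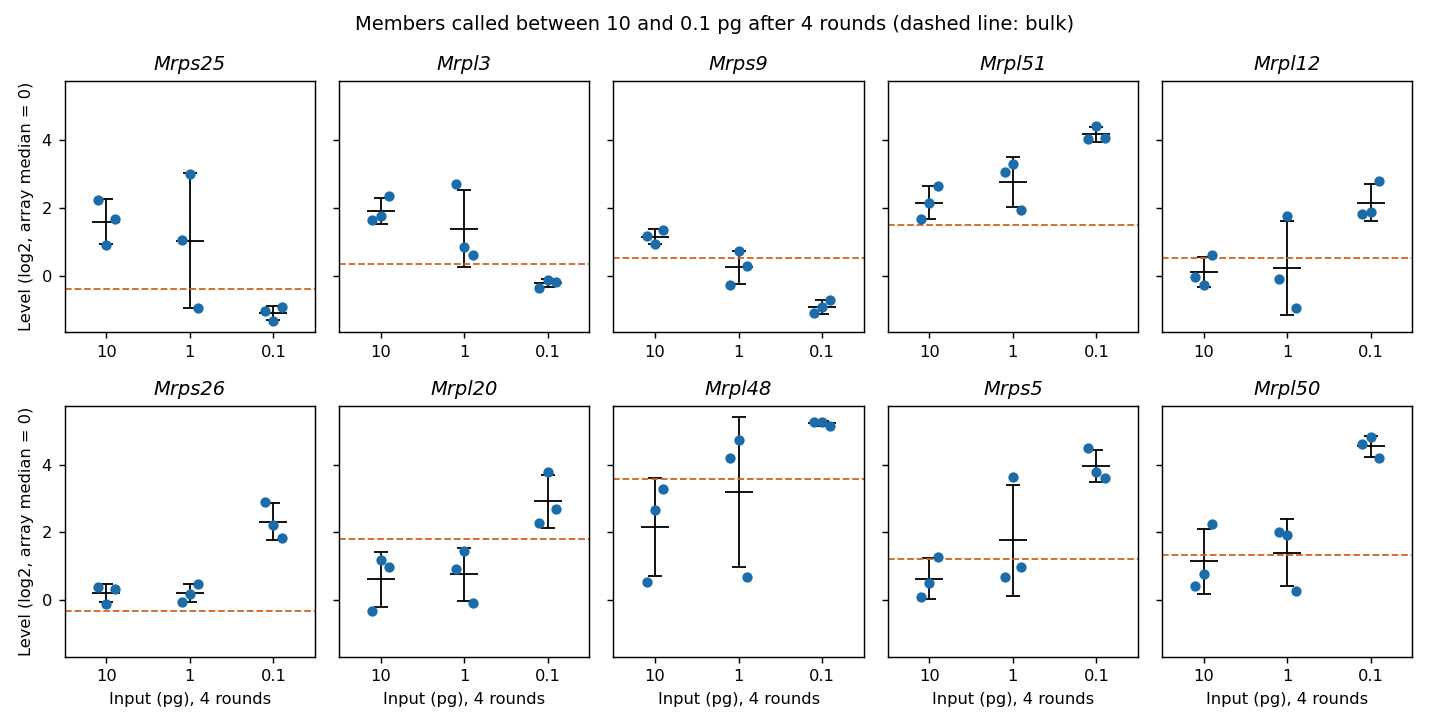
Levels (y axis, log2 units from the array median) of the 10 members called between 10 and 0.1 pg after 4 rounds, by input (x axis), with the 1 pg arrays between them. Points are arrays, horizontal marks with bars are the mean ± SD of 3 arrays, and the dashed line is the single bulk array. The 10 and 0.1 pg arrays do not overlap in any panel, but the members were picked by this same contrast, so the separation adds no support to the calls. The 1 pg arrays of Mrps25, Mrpl48 and Mrps5 are the most widely spread.

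Most of these calls rested on a single probe set of the gene. Of the 10 called members, 8 have further probe sets, 18 in all, and none of these 18 was called, with differences from -1.17 to 1.43 and 10 of the 18 in the direction of the gene's call. Probe sets on both sides of 0 were found for Mrpl3, Mrpl48, Mrpl51, Mrps5 and Mrps9: against the gene's call, Mrps5 had -0.55 and -0.50, Mrps9 0.13 and 0.15, and Mrpl3 0.03. Taking the median over the probe sets of each gene turned the direction of Mrpl48, to -1.02, and of Mrpl51, to -0.98, neither called, and left Mrpl12, Mrpl20 and Mrpl50 of the 10 calls, with Mrpl28 added. Of all 156 member probe sets 8.97% were called, against 8.86% of all probe sets.

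A probe set other than the brightest was called for 4 further members in this contrast. It was lower at 0.1 pg for Mrpl1 of the L1 stalk (difference -2.45, SE 0.522, adjusted p = 0.00863), for Mrpl28 of the large subunit (-2.09, adjusted p = 0.0253) and for Mrps10 (-1.90, adjusted p = 0.0393). It was higher for Mrpl42, specific to mitochondria (1.71, adjusted p = 0.0365). The probe sets that stand for these 4 genes were not called. From 10 to 0.1 pg their means went up, against the called probe set, for Mrpl1 (0.78 to 1.72) and Mrps10 (-0.85 to -0.02). For Mrpl28 and Mrpl42 they moved in the direction of the called probe set.

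The count also depended on single arrays. It was 4 without replicate 1 of 10 pg and 5 without its replicate 2, and 4, 4 and 6 without replicate 1, 2 or 3 of 0.1 pg. Mrpl50, Mrps5 and Mrps9 were called each time 1 array was left out. The probe set of Mrps9 is dim, however, and was itself left out where probe sets below the median were dropped. The 10 and 0.1 pg arrays also differed in the signal of the 3′ over the 5′ end of control transcripts. For actin, this difference of log2 signals was 1.13 ± 0.551 at 10 pg and -0.81 ± 0.156 at 0.1 pg (SD, n = 3 each), for Gapdh 4.73 ± 0.205 and 3.71 ± 0.0278, and for the transferrin receptor 4.73 ± 0.185 and 6.62 ± 0.770. Their part in the members' differences was not tested.

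The second contrast set 0.1 against 1 pg, averaged over 2 and 4 rounds, and called 1 member, Mrpl20, or 1.32% of the family against 1.50% of all genes. At 1 pg Mrpl20 was at 2.02, 1.41 and 2.15 with 2 rounds, against 0.92, 1.46 and -0.07 with 4 rounds. At 0.1 pg it was at 3.83, 3.03 and 3.79 after 2 rounds, and after 4 rounds at the values given above. All 6 arrays at 0.1 pg (3.23 ± 0.666, SD) were above all 6 at 1 pg (1.32 ± 0.813, SD), and the difference was 1.92 (SE 0.384, adjusted p = 0.0210, limma). The 0.1 pg arrays after 4 rounds serve in both contrasts, so both calls of Mrpl20 rest in part on the same arrays. The call was lost without replicate 2 of 1 pg after 2 rounds or without replicate 2 of 0.1 pg after 4 rounds. The median difference was 0.04 both over the family and over all genes.

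The third contrast set 4 against 2 rounds, averaged over 1 and 0.1 pg, and called 3 members, 2 higher and 1 lower after 4 rounds. This is 3.95% of the family against 4.26% of all genes, of which 2.36% were higher and 1.90% lower. The median difference was 0.07 over the members and -0.05 over all genes.

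Mrpl39 of the large subunit, a relative of threonyl-tRNA synthetases, was higher after 2 rounds. It was at 1.87, 2.46 and 2.15 at 1 pg and at 4.74, 4.38 and 2.42 at 0.1 pg after 2 rounds. After 4 rounds it was at 0.89, 1.04 and 0.95 at 1 pg and at 0.98, 0.80 and 0.49 at 0.1 pg. No array of 4 rounds reached an array of 2 rounds, and Mrpl39 fell by 2.14 (SE 0.357, adjusted p = 0.00568, limma). Bulk, at 0.39, was close to the arrays of 4 rounds, and the 10 pg array after 2 rounds, at 4.75, to the highest of 2 rounds. Its other probe set, 1417966_at, had a difference of 0.16 that was not called.

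Mrps24 and Mrps21 of the small subunit, both with bacterial counterparts, rose. Mrps24, at the entrance of the mRNA channel, was at -0.04, -0.56 and -0.45 at 1 pg and at -2.84, -0.47 and 0.39 at 0.1 pg after 2 rounds. With 4 rounds it was at 1.72, 1.51 and 2.11 for 1 pg and 0.06, 0.11 and 1.32 for 0.1 pg. The sides overlapped at 0.1 pg and the difference was 1.80 (SE 0.446, adjusted p = 0.0353). Mrps21 was at -0.07, -0.56 and -0.97 at 1 pg and at 0.00, -1.77 and -1.35 at 0.1 pg after 2 rounds. With 4 rounds it was at 1.44, 0.83 and 0.99 for 1 pg and -0.02, 0.75 and 0.51 for 0.1 pg. The highest array of 2 rounds lay just above the lowest of 4 rounds, and the difference was 1.54 (SE 0.332, adjusted p = 0.0208). The other probe set of Mrps24 had a difference of 1.01 (adjusted p = 0.157) and that of Mrps21, 1459677_at, one of -0.26, neither called.

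Only Mrpl39 was called with each array left out in turn, but with the median over the probe sets of each gene it was not called and Mrps24 alone was. The count fell to 1 without replicate 3 of 1 pg after 2 rounds, replicate 1 of 1 pg after 4 rounds or replicate 2 of 0.1 pg after 4 rounds, and rose to 5 without replicate 3 of 0.1 pg after 2 rounds. A second probe set of Mrps25, 1418716_at, was lower after 4 rounds (difference -1.34, SE 0.329, adjusted p = 0.0338), with sides that overlapped.

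The fourth contrast asked whether the effect of rounds differed between 0.1 and 1 pg. It called 2 members of the large subunit, Mrpl50 and Mrpl12, or 2.63% of the family against 3.99% of all genes. Mrpl50 was at 4.20, 3.17 and 3.81 at 1 pg with 2 rounds, against 2.01, 1.94 and 0.26 with 4 rounds. At 0.1 pg it was at 2.78, 0.71 and 2.32 after 2 rounds and, as given above, higher after 4 rounds. The mean of 4 rounds minus that of 2 rounds was -2.32 at 1 pg and 2.60 at 0.1 pg, without overlap in either, and the difference of these effects was 4.92 (SE 0.887, adjusted p = 0.0102, limma).

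Mrpl12 behaved alike. At 1 pg it was at 2.19, 2.62 and 2.04 with 2 rounds, against -0.09, 1.76 and -0.97 with 4 rounds. At 0.1 pg it was at -0.72, 0.71 and 0.20 after 2 rounds and higher after 4 rounds. The effect of rounds was -2.05 at 1 pg and 2.09 at 0.1 pg, and the difference was 4.14 (SE 0.851, adjusted p = 0.0180). Both members were called with each array left out in turn, and the count ranged from 2 to 7. The other probe set of Mrpl50, 1451266_at, had a difference of effects of -1.27, not called, whereas Mrpl12 has a single probe set.

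**Figure D4:**
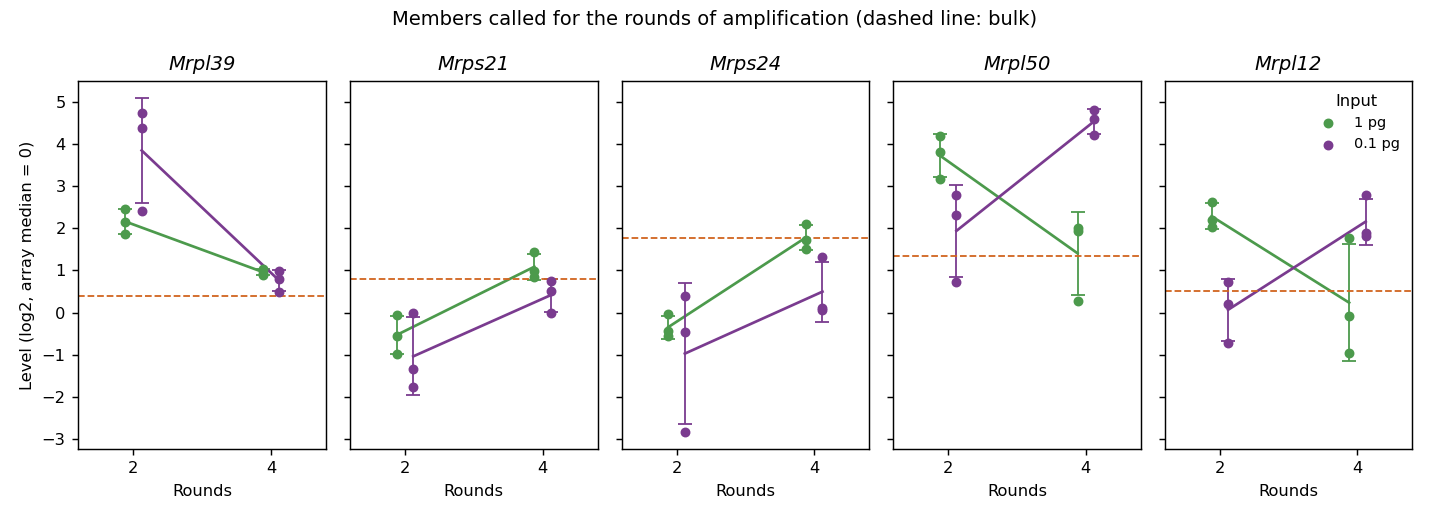
Levels (y axis, log2 units from the array median) after 2 and 4 rounds (x axis) at 1 and 0.1 pg of the members called for the rounds or for the difference between inputs in their effect. Points are arrays, lines join the means and bars are 1 SD of 3 arrays; the dashed line is bulk. Mrpl39 falls and Mrps21 and Mrps24 rise at both inputs, while the lines of Mrpl50 and Mrpl12 cross, falling at 1 pg by 2.32 and 2.05 and rising at 0.1 pg by 2.60 and 2.09.

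A probe set other than the brightest was called in this contrast for 4 further members. The difference of effects was 3.40 (adjusted p = 0.0264) for Mrpl15, 2.80 (adjusted p = 0.0383) for Mrpl39, 2.88 (adjusted p = 0.0465) for Mrps15 of the small subunit and -3.51 (adjusted p = 0.0411) for Mrps5. The probe sets that stand for these 4 genes were not called here. By their group means, the difference of effects went the other way for Mrpl39, Mrps15 and Mrps5 and the same way for Mrpl15. The behaviour of the separate probe sets is drawn for 6 members.

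**Figure D5:**
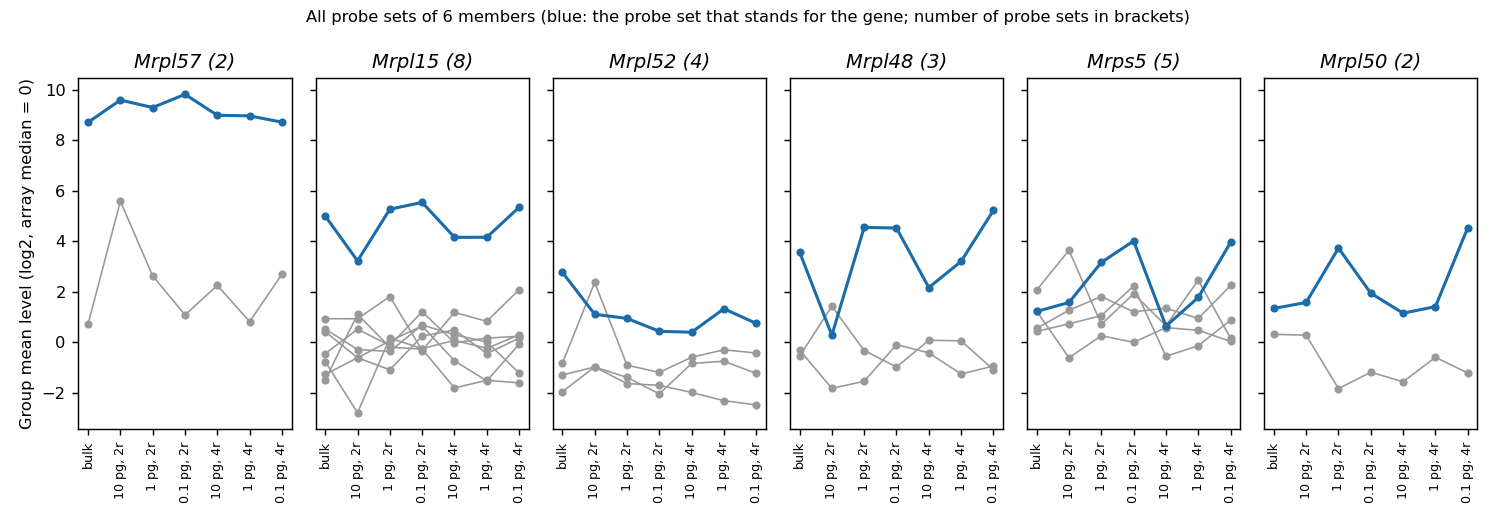
Mean level (y axis, log2 units from the array median) of every probe set of 6 members in bulk and in the 6 amplified conditions (x axis; r stands for rounds). The blue line is the probe set with the highest mean, which stands for the gene, and grey lines are the others. The probe sets of Mrpl57 are 7.99 apart in bulk and the 8 of Mrpl15 spread over 6.49, and the rise of the blue lines of Mrpl48, Mrps5 and Mrpl50 at 0.1 pg after 4 rounds is not followed by every grey line.

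The last contrast set the mean of the 6 amplified conditions against the single bulk array, which is assumed to vary like the other arrays. It called 0 members (limma), against 0.824% of all genes, and 6 members (7.89%) had an unadjusted p under 0.05, against 13.4% of all genes. Mrps30 came closest, with a difference of -3.31 (SE 0.879, adjusted p = 0.0873). It was called, alone, when replicate 1 or all 3 arrays of 0.1 pg after 2 rounds were left out and with median centring alone. The other 5 with an unadjusted p under 0.05 were Mrpl46 (-2.02), Mrpl52 (-1.94) and Mrps23 (-1.37) with values below 0, and Mrpl39 (1.79) and Mrps26 (1.54) above, and Mrpl39 was called without replicate 3 of 0.1 pg after 2 rounds. The median difference was 0.25 over the members and 0.16 over all genes.

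The median SD of the members between replicates on the log2 scale was 0.44 at 1 pg and 0.84 at 0.1 pg after 2 rounds, against 0.46 and 0.82 over all genes. After 4 rounds it was 0.49, 0.61 and 0.37 at 10, 1 and 0.1 pg, against 0.40, 0.53 and 0.41. Pearson's correlation between replicates over the 76 members averaged 0.938 at 1 pg after 2 rounds and 0.933 at 0.1 pg after 4 rounds, and was lowest at 1 pg after 4 rounds, at 0.710, with the lowest pair at 0.581. Over all genes it averaged 0.915 and 0.915 in the first 2 of these, and 0.836 at 1 pg after 4 rounds, with the lowest pair at 0.779.

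Of 4 measured proteins of the same ribosome without an Mrp symbol, Chchd1 of the small subunit was called for the rounds, or 25% against 4.26% of all genes. Chchd1 had mean levels of 1.14 and 0.40 at 1 and 0.1 pg after 2 rounds and of 4.59 and 4.56 after 4 rounds, with no overlap, and the difference was 3.80 (SE 0.520, adjusted p = 0.00171, limma). Bulk was at 3.55. Of 33 genes of mitochondrial translation and ribosome assembly, 1 (3.03%) was called for the rounds, Tfb1m, an rRNA methyltransferase, which fell by 1.69 (adjusted p = 0.0250).

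Of the 33 genes of translation and assembly, only Gfm1, the mitochondrial elongation factor G, was called at 0.1 against 10 pg after 4 rounds (2.11, SE 0.632, adjusted p = 0.0478, limma). This is 3.03% of the list against 9.98% of all genes. Gfm1 was also its only call for the difference between inputs in the effect of rounds (3.82, SE 0.894, adjusted p = 0.0295), or 3.03% against 3.99% of all genes. These contrasts share the 0.1 pg arrays after 4 rounds, on which Gfm1 averaged 1.75. Of 16 mitochondrial aminoacyl-tRNA synthetases 1 (6.25%) was called at 0.1 against 10 pg after 4 rounds, against 9.98% of all genes: Tars2, which charges the mitochondrial threonine tRNA, rose from 3.23 to 6.08 (difference 2.85, SE 0.631, adjusted p = 0.0106). Slirp, the RNA-binding partner of Lrpprc in mitochondrial mRNA stability, was at 2.41 in bulk and between means of -1.38 and 0.00 in the amplified conditions. This difference of -3.12 rests on the single bulk array.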

How the data were processed

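RNA of 17 arrays in 7 groups was measured on Affymetrix mouse arrays. The authors summarized probes with RMA 2.0 (methods: upper decile statistic) and deposited log2 values from 1.56 to 15.8, without the median centring and range scaling that the methods describe. Here the median of all 45101 probe sets was subtracted from each array, and the result was scaled so that the span between the percentiles 10 and 90 equalled 4.64, the average over arrays; 64 controls were then left out. Symbols came from the platform annotation, where 34945 probe sets have 1 symbol, 932 several and 9160 none. All 76 members have the same symbol in RefSeq.

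The test was limma (version 3.58.1, R 4.3.3), with lmFit on a mean for each of 7 groups, all 17 arrays in 1 model, the 5 contrasts, eBayes (16.4 total degrees of freedom) and Benjamini-Hochberg adjustment over 45037 probe sets, threshold 0.05. Bulk and 10 pg after 2 rounds are single arrays, assumed to vary like the others. Tables and figures used python 3.11.15, numpy 2.4.6, pandas 2.3.3 and matplotlib 3.10.9. The code was tested on simulated data.

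Named members are, per contrast, up to 5 called rises and 5 called falls, the 5 highest and 5 lowest in bulk, the S18 genes, Mrpl20 and those with a called probe set other than the one that stands for the gene; of the partner lists, up to 2 rises and 2 falls. The unadjusted members against bulk, the members on one side of the median on every array and Mrpl23 were named after their values were seen. Members and lists were chosen with earlier results of these data known. Alternatives were the deposited values, centring alone, quantile normalization, dim probe sets left out, gene medians, the methods' t-test, a false discovery rate of 0.1%, only the groups compared, the replicate number as a block, and arrays left out. The omission of the 0.1 pg arrays with 2 rounds was chosen after seeing the data. The number of arrays limits the precision. Coordinates and sequences were not used here.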

Additional observations from a re-analysis of the deposited data

Results flagged for a closer look

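The effect of rounds differed between inputs for 2 members, by the limma test of the difference itself. For Mrpl50 the change from 2 to 4 rounds at 0.1 pg minus that at 1 pg was 4.92 on the log2 scale (adjusted p = 0.0102), and for Mrpl12 it was 4.14 (adjusted p = 0.0180). In both genes all 3 arrays of 4 rounds lay above those of 2 rounds at 0.1 pg and below them at 1 pg. At 0.1 pg after 2 rounds 135, 132 and 111 of the 156 member probe sets shared their value with another member, and the part of these ties in the differences was not tested.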

How the results depend on the processing

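For 0.1 against 10 pg after 4 rounds, the 10 called members became 0 at a false discovery rate of 0.1%, 4 with the median of each gene's probe sets, 17 with only the groups compared and 3 with the methods' t-test, and 4 to 11 with single arrays left out. The fewest, 4 to 6, came without replicate 1 or 2 of 10 pg or any replicate of 0.1 pg. With no probe sets below the median, all of the 10 calls but Mrps9 stayed, since its dim probe set was not in that fit. Mrpl48 and Mrpl51 turned to -1.02 and -0.98 with the median of the probe sets, the construction of which includes their probe sets of the other direction. For 0.1 against 1 pg, the call of Mrpl20 became 0 at 0.1% and with the t-test, and 0 to 2 with arrays left out: 0 without replicate 2 of 1 pg after 2 rounds or of 0.1 pg after 4 rounds, and 2 without replicate 3 of 0.1 pg after 2 rounds or replicate 2 or 3 of 1 pg after 4 rounds. For the rounds, the 3 calls became 0 at 0.1% and with the t-test, 1 (Mrps24, with Mrpl39 lost) with gene medians and 1 to 5 with arrays left out. In both of these contrasts the t-test pooled the conditions on each side. Differences between the pooled conditions thus counted as spread, unlike in limma, so it is not a like-for-like check. Against bulk, the 0 calls became 1 (Mrps30) with median centring alone and without the 0.1 pg arrays after 2 rounds, and 0 to 1 with arrays left out. For the difference in the effect of rounds, the 2 calls became 0 at 0.1%, 4 with the deposited values, with centring alone and with no probe sets below the median, 1 (Mrpl12) with gene medians, and 2 to 7 with arrays left out: 5, 4 and 7 without replicate 1, 2 or 3 of 0.1 pg after 2 rounds and 5 without replicate 2 of 1 pg after 4 rounds. The cause of these changes was not tested. The shares of all genes called under these alternatives are not given here. The counts therefore do not show whether the members changed more than other genes. Without the 10 pg array after 2 rounds, the same members were called in all 5 contrasts.

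The median percentile of the members in bulk moved to 42.5 with gene medians and 48.9 over all probe sets, on the 10 pg array after 2 rounds to 58.9 and 59.6, and at 10 pg after 4 rounds to 50.6 over all probe sets. With arrays left out it ranged from 45.6 to 48.5 at 1 pg and 46.9 to 51.1 at 0.1 pg after 2 rounds, and from 46.5 to 48.3, 46.8 to 52.9 and 47.2 to 49.2 at 10, 1 and 0.1 pg after 4 rounds. The calls of the main fit were followed through the alternatives. Of these 391 values, 319 kept their direction and side of the threshold, 70 kept the direction only and 2 turned. Most alternatives left out a single array, often one outside the contrast, so few values could turn. No pairing of the arrays by replicate number was seen, although this does not exclude one. The deviations of 30 same-numbered pairs had a mean correlation of -0.00719, and 4 of 15 arrays were closest to their own number. With the replicate number as a block, 9, 1, 3 and 2 members were called for 0.1 against 10 pg, 0.1 against 1 pg, the rounds and their difference, Mrps25 being the call that was lost; bulk could not be fitted with it.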
